A study of Mus musculus with 24 samples.

Results

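The genes described here mark inhibitory interneurons of the hippocampus. They were chosen by name, as known markers, and are 9 of the 23845 genes with RNA counts and of the 20436 genes with counts of ribosome-protected fragments (RPFs). The first 3 make or load the transmitter GABA: Gad1 and Gad2, which encode the glutamate decarboxylases GAD67 and GAD65, and Slc32a1, which encodes the vesicular GABA transporter. The other 6 label subtypes of interneuron: the neuropeptides Sst, Vip, Npy and Cck, the calcium-binding protein Pvalb and the secreted matrix glycoprotein Reln. All 9 passed the filter on low counts in both assays. In the mm10 build (GRCm38.p6, RefSeq annotation) Gad1 lies at chr2:70561303-70602014 (plus strand), Gad2 at chr2:22621015-22693877 (plus), Slc32a1 at chr2:158607260-158615747 (plus), Sst at chr16:23889573-23891342 (minus), Pvalb at chr15:78191112-78206400 (minus), Vip at chr10:5639193-5647617 (plus), Npy at chr6:49822710-49829507 (plus), Cck at chr9:121489824-121495694 (minus), Reln at chr5:21884454-22344705 (minus).

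Interneurons release GABA onto pyramidal cells and onto each other, and set when and how strongly CA1 fires. GAD67 makes most of the GABA of the cell body and GAD65 is bound to vesicles at the terminal. Fast-spiking basket cells carry Pvalb, basket cells of another kind carry Cck, dendrite-targeting cells carry Sst and often Npy, neurogliaform cells carry Npy or Reln, and many interneurons that contact other interneurons carry Vip. Cck and Reln are not specific to interneurons, since pyramidal cells also express Cck and Cajal-Retzius cells express Reln.

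Slices came from male C57BL/6J mice aged 28 to 42 days, either germline Tsc2+/- animals, made by crossing a floxed Tsc2 allele to a CMV-Cre line that deletes it in every tissue, or their wild-type (WT) littermates. Area CA3 had been cut away. Slices were given artificial cerebrospinal fluid (vehicle) or 100 µM DHPG, which activates the group I metabotropic glutamate receptors mGluR1 and mGluR5, for 5 min, and all were then exposed to cycloheximide, which holds ribosomes in place. Slices of several mice were pooled into 1 lysate, from which both an RNA-seq and a ribosome profiling library were made, giving 4 groups of 3 lysates and 24 libraries. TSC2 restrains the kinase mTOR and these receptors stimulate protein synthesis, so the design asks how genotype and DHPG, alone and together, alter RNA, RPF and translational efficiency (TE, footprints per RNA). In tissue of mixed cells, fewer interneurons and less RNA per interneuron cannot be told apart.

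RNA libraries held 14801679 to 24067838 counts and RPF libraries 5296006 to 13613673, of which the 9 genes took 0.13 to 0.146% of RNA and 0.217 to 0.253% of RPF. Levels are given as CPM, counts divided by library size with TMM factors. Tsc2 checked the genotype labels, with 186 to 214 in WT against 128 to 137 in Tsc2+/- RNA, and 123 to 146 against 76.5 to 84.5 in RPF (CPM). It does not check the labels of treatment or replicate number. In the RPF libraries of replicates 2 and 3, 72 of 72 counts of the 9 genes were even numbers, against 14 of 36 in replicate 1. This was not particular to the 9 genes. Over all genes, 97.9 to 98.5% of nonzero counts were even in those libraries, against 48.2 to 49% in replicate 1. With the counts of replicates 2 and 3 halved none of the 9 was called either. WT vehicle replicate 3 was the RNA library farthest from its replicate number's mean, with a median absolute deviation of 0.088 (log2 CPM) over all genes against 0.0577 to 0.0832 in the other 11. WT vehicle replicates 1 and 3 were the farthest RPF libraries, at 0.118 and 0.115.

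Gad1 and Gad2 are paralogs, and RPF reads are short, so the stretch of coding sequence in which they are most alike is shown first. The longest run of identical bases is 17 nt, in capitals below with 20 bases on either side (RefSeq, GRCm38.p6, plus strand, Gad1 at chr2:70593434-70593490 and Gad2 at chr2:22673946-22674002), and of the 1757 stretches of 26 nt in the Gad1 coding sequence 0 occur in Gad2.
Gad1: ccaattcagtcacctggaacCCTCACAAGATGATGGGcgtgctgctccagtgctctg
Gad2: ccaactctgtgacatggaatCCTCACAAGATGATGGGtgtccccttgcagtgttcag
A read of 26 nt without errors could therefore be assigned to 1 of the paralogs.

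RPFs were counted over coding sequences with 30 nt removed at each end, which takes a larger share of a short peptide precursor than of a long enzyme. For Sst, whose coding sequence has 351 nt, the last 75 coding bases are shown (chr16:23889729-23889803, GRCm38.p6, minus strand), with the 30 that were not counted in capitals.
Sst: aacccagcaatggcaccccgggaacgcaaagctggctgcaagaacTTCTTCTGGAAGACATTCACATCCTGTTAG
The hormone somatostatin-14 is encoded at this end of the precursor, and the uncounted bases hold most of its codons and the stop codon. The counted coding length was 234 nt for Npy, 273 for Pvalb, 291 for Sst, 345 for Cck, 456 for Vip, 1518 for Slc32a1, 1698 for Gad2, 1722 for Gad1 and 10326 for Reln. Levels of single genes are compared with each other only per length. CPM summed or averaged over several genes are not divided by length.

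Sst and Vip are textbook targets of the cAMP-responsive factor CREB, so their proximal promoters are shown. Whether DHPG acted through CREB was not tested. The 80 bases before the start site in the RefSeq promoter table (further RefSeq transcripts start upstream of it in both genes) carry the letters TGACGTCA in Sst (chr16:23890845-23890924, minus strand, first base at -48 from the start) and TGACGT in Vip (chr10:5639138-5639217, plus strand, first base at -79), in capitals.
Sst: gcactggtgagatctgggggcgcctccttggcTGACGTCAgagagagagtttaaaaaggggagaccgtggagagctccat
Vip: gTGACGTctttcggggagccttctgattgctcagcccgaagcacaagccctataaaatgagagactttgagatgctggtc
Over the 32851 RefSeq promoters of 300 bases (250 before to 50 after the start), TGACGTCA was found on either strand in 1.79% and TGACGT, which it contains, in 7.51%. Neither was found in a promoter of the other 7 genes, and a match describes letters and not a bound site.

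Sst and Cck were the most abundant of the 9 mRNAs per length and Reln the least. Sst had 432 ± 29.7 CPM per kb of transcript (SD, n = 12 lysates) and Cck 421 ± 34.0, and which was higher varied, with Sst above Cck in 7 of 12 lysates. Both lay above 99% of the 12195 genes with a length that were tested in both assays. Npy followed at 106 ± 9.82 and Gad1 at 82.9 ± 3.82, then Gad2 at 35.4 ± 1.40 and Slc32a1 at 33.8 ± 1.77, whose ranges overlapped. Pvalb had 20.2 ± 2.94, Vip 13.1 ± 1.30 and Reln 6.75 ± 0.521 CPM per kb. Reln thus lay below the median gene (8.28 CPM per kb), at the 44.5 percentile, and the rest lay between the 62.5 and the 99.5 percentile.

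The order changed in RPF. Pvalb and Vip, the 2 lowest mRNAs after Reln, stood above Slc32a1 and Gad2 in footprints per kb of counted coding sequence: Pvalb had 252 ± 49.7 CPM per kb and Vip 143 ± 14.2, against 121 ± 6.19 for Gad2 and 82.7 ± 7.20 for Slc32a1 (SD, n = 12). Vip was above Gad2 in 11 of 12 lysates and Pvalb below Gad1 (309 ± 10.4) in 11 of 12, with overlapping ranges in both pairs. Sst (1828 ± 151), Cck (1255 ± 92.1) and Npy (490.1 ± 41.5) stayed at the top and Reln (22.5 ± 1.28) at the bottom.

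Footprints per RNA, both per length, were highest for Pvalb and Vip. The log2 ratio was 3.63 ± 0.36 for Pvalb and 3.45 ± 0.19 for Vip (SD, n = 12 lysates), which is 5.3 and 4.7 times the ratio of the median gene (log2 1.22) and the 97.9 and 97.1 percentile. Npy (2.20 ± 0.16), Sst (2.08 ± 0.15), Gad1 (1.90 ± 0.07), Gad2 (1.78 ± 0.06), Reln (1.74 ± 0.14), Cck (1.58 ± 0.16) and Slc32a1 (1.29 ± 0.18) followed, each overlapping in range with the next. No gap other than that between Vip and Npy, 1.25 ± 0.24 and the same way in 12 of 12 lysates, separated neighbours without overlap. All 9 lay above the median gene, with Slc32a1, at the 52.3 percentile, next to it. With the shortest in place of the longest coding RefSeq transcript the value of Gad1 moved to 2.37, and those of the others moved by less than their SD. RNA had been selected by its poly(A) tail and counted over whole transcripts, and no correction was made for the length of the reads themselves, so the ratio describes these libraries and not a rate of synthesis.

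**Figure D1:**
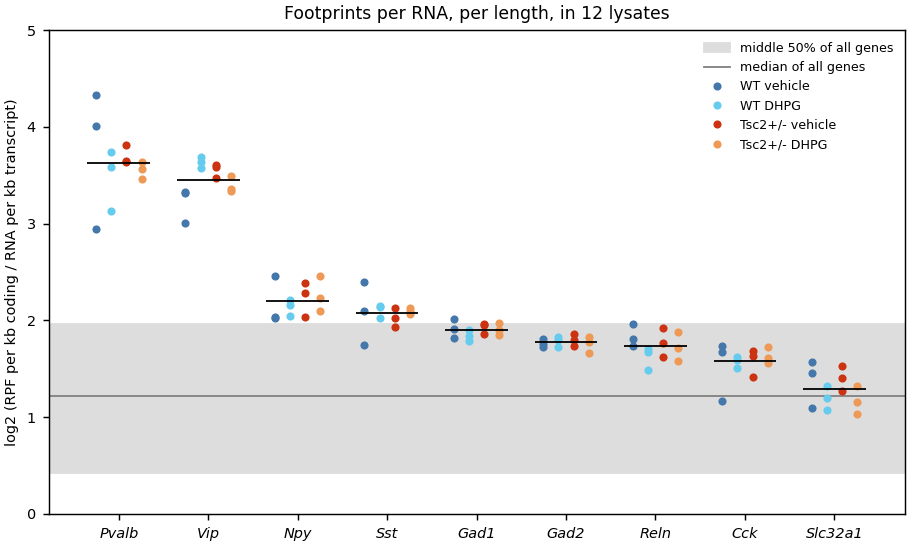
Log2 ratio of RPF per kb of counted coding sequence to RNA per kb of transcript, for each gene in the 12 lysates, coloured by group, with the mean as a black line. The grey band holds the middle 50% of 12195 genes (0.42 to 1.97) and the grey line their median, 1.22. Pvalb and Vip sit above the others and Slc32a1 on the median.

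The decarboxylases differed from each other by nearly the same factor in RNA and RPF. Per length, Gad1 was 2.34 ± 0.08 times Gad2 in RNA and 2.55 ± 0.17 times in RPF (SD, n = 12 lysates). The RPF ratio divided by the RNA ratio was 1.09 ± 0.08, and it was above 1 in all 12 lysates, from 1.01 to 1.24. It rests on the longest transcript of each gene, since the shortest RefSeq form of Gad1 has 672 coding bases in place of 1782.

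In RNA the 3 GABA genes varied less from lysate to lysate than any subtype marker. After removing group and replicate number, the SD of log2 CPM in RNA was 0.0532 for Gad1, 0.0544 for Gad2 and 0.0543 for Slc32a1, below the median of genes of like level (within 0.5 on the log2 scale) in each case. It was 0.138 for Cck, 0.134 for Reln, 0.0954 for Sst, 0.161 for Pvalb and 0.102 for Npy, above that median, and 0.0991 for Vip, below it. In RPF the classes were mixed, and the SD ran from 0.0426 for Gad1 to 0.214 for Pvalb, the 98.8 percentile of 1849 genes of like level. Counting error is a part of this spread: over all 12 libraries Pvalb had 268 to 570 RNA counts, a coefficient of variation of 14.5% and a counting error of 5.08%, whereas Cck had 5371 to 8545 counts, 8.09% and 1.18%.

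None of the 9 genes was called by the edgeR quasi-likelihood test (adjusted p under 0.1) in any of the 21 comparisons, which are 7 each for RNA, RPF and TE. The effect of genotype called 0.0896% of 14516 genes in vehicle RNA, 0.0482% in DHPG RNA and 0.227% averaged over treatments, 0.0233%, 0.0155% and 0.0621% of 12877 genes in RPF, and 0% of 12785 genes in all 3 of these comparisons in TE. The effect of DHPG called 0% in WT RNA, 0% in Tsc2+/- RNA and 0.0207% averaged over genotypes, 0.0311%, 0% and 0.0311% in RPF, and 0.0469%, 0% and 0.0469% in TE. Their interaction called 0% in RNA, RPF and TE. At an unadjusted p under 0.05, 16 of the 189 tests of the 9 genes passed (8.47%), against 5.46% of all tests, and the comparisons share libraries. DESeq2 also called 0 of the 9 genes, with 15 tests at an unadjusted p under 0.05. The replicates are described as biological but are pooled lysates, so p-values measure the spread between these pools. The 95% confidence intervals (CI) below give the size of change that these 3 lysates per group leave possible.

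**Figure D2:**
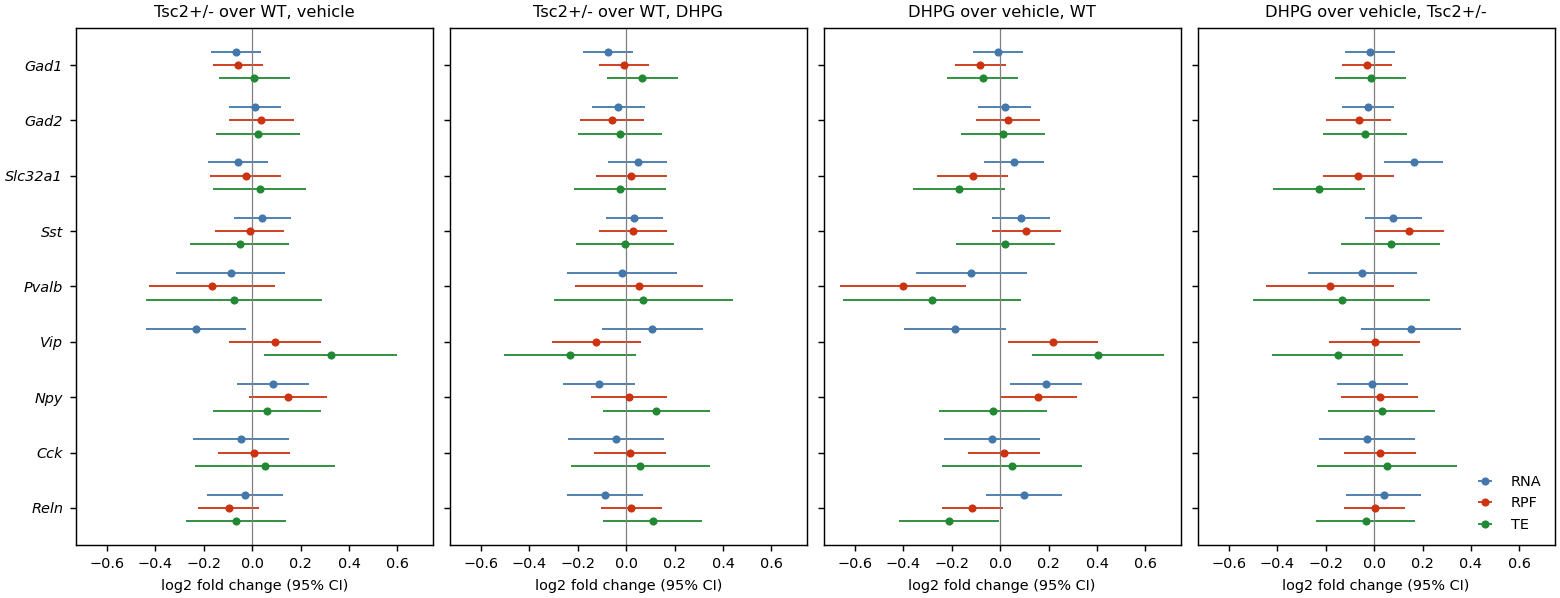
Log2 fold change with 95% CI of each gene in RNA (blue), RPF (red) and TE (green), for genotype in each treatment and DHPG in each genotype. Points are edgeR estimates from all libraries of an assay. Most intervals cross 0, and those that do not, such as RPF of Pvalb after DHPG in WT (-0.66 to -0.14), belong to tests that failed the adjustment.

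Gad1, the main source of GABA in the cell body, had RNA CPM of 300.1, 274 and 262 in WT vehicle, 276, 272 and 282 in WT DHPG, 268, 262 and 267 in Tsc2+/- vehicle and 276, 251 and 261 in Tsc2+/- DHPG. Its RPF CPM was 559, 544 and 558 in WT vehicle, 503, 536 and 532 in WT DHPG, 544, 538 and 511 in Tsc2+/- vehicle and 526, 519 and 515 in Tsc2+/- DHPG. Mean RNA and mean RPF were a little lower in Tsc2+/- than in WT slices, with overlap in both treatments. The genotype effect was -0.07 (95% CI -0.17 to 0.04, adjusted p = 0.991) on the log2 scale in vehicle RNA and -0.06 (95% CI -0.16 to 0.04, adjusted p = 0.869) in vehicle RPF. In RPF the 3 WT DHPG libraries lay below the 3 WT vehicle libraries, a difference of -0.08 (95% CI -0.18 to 0.02, adjusted p = 0.784).

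Gad2, whose product sits on synaptic vesicles, had RNA CPM of 216, 196 and 184 in WT vehicle, 206, 195 and 202 in WT DHPG, 202, 203 and 196 in Tsc2+/- vehicle and 199, 199 and 193 in Tsc2+/- DHPG. RPF CPM was 221, 207 and 184 in WT vehicle, 206, 204 and 217 in WT DHPG, 213, 203 and 214 in Tsc2+/- vehicle and 206, 189.9 and 207 in Tsc2+/- DHPG. All groups overlapped in both assays. In vehicle the genotype effect was 0.01 (95% CI -0.10 to 0.12, adjusted p = 0.997) in RNA and 0.04 (95% CI -0.09 to 0.17, adjusted p = 0.944) in RPF. For DHPG in WT it was 0.02 (95% CI -0.09 to 0.13, adjusted p = 0.982) in RNA and 0.03 (95% CI -0.10 to 0.16, adjusted p = 0.956) in RPF.

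Slc32a1, which fills vesicles with GABA, had RNA CPM of 89.3, 97.1 and 92.5 in WT vehicle, 96.6, 95.7 and 98.0 in WT DHPG, 92.8, 90.7 and 84.6 in Tsc2+/- vehicle and 97.9, 99.9 and 102 in Tsc2+/- DHPG. The same lysates gave RPF CPM of 144, 112 and 137 in WT vehicle, 131, 119 and 112 in WT DHPG, 133, 119 and 133 in Tsc2+/- vehicle and 132, 111 and 124 in Tsc2+/- DHPG. After DHPG all 3 Tsc2+/- libraries were above the Tsc2+/- vehicle libraries in RNA, while in RPF they overlapped. The DHPG effect in Tsc2+/- was 0.16 (95% CI 0.04 to 0.28, adjusted p = 1) in RNA, -0.06 (95% CI -0.21 to 0.08, adjusted p = 1) in RPF and -0.23 (95% CI -0.42 to -0.04, adjusted p = 0.999) in TE. In WT slices the TE estimate had the same sign, -0.17 (95% CI -0.36 to 0.02, adjusted p = 0.607). Averaged over genotypes it was -0.20 (95% CI -0.33 to -0.06, adjusted p = 0.38), and without WT vehicle replicate 2 it passed the adjustment, at -0.25 with an adjusted p of 0.0901. Over 24 alternatives it ran from -0.27 to -0.11, the smallest without replicate 3 (adjusted p = 0.876).

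Sst, the somatostatin precursor of dendrite-targeting cells, had RNA CPM of 233, 223 and 289.6 in WT vehicle, 264, 264 and 261 in WT DHPG, 257, 249.1 and 258 in Tsc2+/- vehicle and 269, 263 and 276 in Tsc2+/- DHPG. In RPF it had CPM of 595, 465 and 473 in WT vehicle, 562, 569 and 518 in WT DHPG, 479, 528 and 512 in Tsc2+/- vehicle and 574, 535 and 572 in Tsc2+/- DHPG. In Tsc2+/- slices DHPG libraries were above vehicle libraries in both assays, by 0.08 (95% CI -0.04 to 0.20, adjusted p = 1) in RNA and 0.15 (95% CI 0.0035 to 0.29, adjusted p = 1) in RPF. In WT slices vehicle libraries were spread widely and overlapped with DHPG, with an RPF effect of 0.11 (95% CI -0.03 to 0.25, adjusted p = 0.789). Averaged over genotypes the RPF effect was 0.13 (95% CI 0.03 to 0.23, adjusted p = 0.623), and without WT vehicle replicate 1, the vehicle library highest in Sst footprints, it was 0.19 with an adjusted p of 0.0174. Over all 23 alternatives the averaged effect ran from 0.08, without Tsc2+/- vehicle replicate 1, to 0.19 (adjusted p from 0.0174 to 0.999), and that in Tsc2+/- was 0.06 without the same library, 0.10 without Tsc2+/- DHPG replicate 3, and had an unadjusted p under 0.05 in 13 of 24 alternatives. Genotype effects were 0.04 in vehicle RNA and -0.01 in vehicle RPF.

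Npy, an inhibitory peptide of neurogliaform and dendrite-targeting cells, had RNA CPM of 58.8, 49.9 and 61.3 in WT vehicle, 65.7, 66.1 and 61.4 in WT DHPG, 65.5, 54.9 and 60.1 in Tsc2+/- vehicle and 67.2, 52.5 and 59.97 in Tsc2+/- DHPG. Footprints of the gene stood at CPM of 98.8, 114 and 104 in WT vehicle, 121, 127 and 105 in WT DHPG, 111, 119 and 121 in Tsc2+/- vehicle and 130.1, 119 and 106 in Tsc2+/- DHPG. WT vehicle had the lowest mean in both assays, and its 3 RNA libraries lay below those of WT DHPG. The DHPG effect in WT was 0.19 (95% CI 0.04 to 0.34, adjusted p = 0.725) in RNA and 0.16 (95% CI -0.00083 to 0.32, adjusted p = 0.731) in RPF, with a TE change of -0.03. The RNA effect was 0.09 without WT DHPG replicate 2, and over 23 alternatives it ran from 0.08 to 0.29. In Tsc2+/- slices it was -0.01 in RNA and 0.02 in RPF, and the difference between genotypes was -0.20 (95% CI -0.41 to 0.01, adjusted p = 0.999) in RNA.

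Vip, the peptide of interneurons that target other interneurons, had RNA CPM of 21.2, 21.4 and 22.7 in WT vehicle, 17.6, 22.0 and 17.8 in WT DHPG, 16.7, 18.8 and 20.2 in Tsc2+/- vehicle and 18.9, 21.7 and 21.3 in Tsc2+/- DHPG. In RPF the CPM was 63.1, 64.0 and 54.4 in WT vehicle, 67.6, 78.2 and 66.4 in WT DHPG, 55.2, 68.2 and 72.2 in Tsc2+/- vehicle and 63.5, 65.4 and 65.1 in Tsc2+/- DHPG. WT vehicle held the highest mean in RNA and the lowest in RPF. RNA in vehicle was lower in Tsc2+/- than in WT without overlap, at -0.23 (95% CI -0.44 to -0.02, adjusted p = 0.983), and RPF in WT was higher after DHPG without overlap, by 0.22 (95% CI 0.03 to 0.40, adjusted p = 0.674), or 0.14 without WT vehicle replicate 3. Log2 footprints per RNA and length were 3.22 ± 0.18 after vehicle and 3.64 ± 0.06 after DHPG in WT slices (SD, n = 3), and 3.56 ± 0.07 and 3.40 ± 0.09 in Tsc2+/- slices. The TE effect of DHPG was 0.41 (95% CI 0.13 to 0.68, adjusted p = 0.317) in WT and -0.15 (95% CI -0.42 to 0.12, adjusted p = 0.999) in Tsc2+/-, and their difference was -0.56 (95% CI -0.94 to -0.17, adjusted p = 0.999). The WT effect and the difference between genotypes had the smallest p-values of the 9 genes in their TE comparisons, and neither passed the adjustment. Both use the WT vehicle libraries, of which replicate 3 was the highest in RNA (22.7 CPM) and the lowest in RPF (54.4 CPM, 286 counts). Over 24 alternative settings the interaction in TE ran from -0.67 to -0.41 and its adjusted p from 0.402 to 1.

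Cck, the peptide of a second kind of basket cell that pyramidal cells also express, had RNA CPM of 361, 327 and 421 in WT vehicle, 392, 367 and 324 in WT DHPG, 387, 329 and 357 in Tsc2+/- vehicle and 339, 358 and 352 in Tsc2+/- DHPG. RPF libraries held CPM of 485, 421 and 381 in WT vehicle, 452, 455 and 395 in WT DHPG, 418, 427 and 447 in Tsc2+/- vehicle and 403, 477 and 436 in Tsc2+/- DHPG. All groups overlapped in both assays. In WT vehicle replicate 3 its RNA was the highest and its RPF the lowest of the 12 libraries. The effect of genotype in vehicle was -0.05 (95% CI -0.25 to 0.15, adjusted p = 0.991) in RNA and 0.01 (95% CI -0.14 to 0.16, adjusted p = 0.994) in RPF, and of DHPG in WT -0.03 and 0.02.

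Pvalb, the calcium buffer of fast-spiking basket cells, had RNA CPM of 18.8, 16.7 and 28.1 in WT vehicle, 17.7, 19.3 and 20.9 in WT DHPG, 19.2, 18.7 and 21.2 in Tsc2+/- vehicle and 18.1, 19.2 and 19.9 in Tsc2+/- DHPG. The RPF CPM of the gene was 106, 75.03 and 60.1 in WT vehicle, 66.1, 64.7 and 51.2 in WT DHPG, 75.1, 65.8 and 73.4 in Tsc2+/- vehicle and 62.7, 59.1 and 65.6 in Tsc2+/- DHPG. WT vehicle held both the highest RNA library, replicate 3, and the highest RPF library, replicate 1, and these were not the same lysate. Mean footprints after DHPG were lower than after vehicle, without overlap in Tsc2+/- and with overlap in WT. The DHPG effect on RPF was -0.40 (95% CI -0.66 to -0.14, adjusted p = 0.528) in WT, -0.18 (95% CI -0.45 to 0.08, adjusted p = 1) in Tsc2+/- and -0.29 (95% CI -0.48 to -0.11, adjusted p = 0.451) averaged over genotypes. Without WT vehicle replicate 3, the lowest vehicle library, the WT effect was -0.55 with an adjusted p of 0.057 and the averaged effect -0.37 with an adjusted p of 0.063. With only the 6 WT RPF libraries in the fit the WT effect was -0.39 with an adjusted p of 0.0155. In the other direction, the WT effect was -0.20 (adjusted p = 0.605) without WT vehicle replicate 1, the highest RPF library, and the averaged effect was -0.19 (adjusted p = 0.838) without replicate 1 of every group. RNA of Pvalb differed by -0.12 (95% CI -0.35 to 0.11, adjusted p = 0.917) after DHPG in WT, and the TE change was -0.28 (95% CI -0.65 to 0.09, adjusted p = 0.66).

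Reln, a large secreted glycoprotein, had RNA CPM of 83.5, 81.4 and 68.6 in WT vehicle, 82.3, 81.9 and 85.7 in WT DHPG, 68.9, 75.7 and 84.3 in Tsc2+/- vehicle and 77.4, 73.0 and 84.8 in Tsc2+/- DHPG. Its RPF CPM was 246, 252 and 237 in WT vehicle, 236, 230.4 and 212 in WT DHPG, 229.9, 228 and 229 in Tsc2+/- vehicle and 252, 212 and 224 in Tsc2+/- DHPG. In RPF the 3 WT vehicle libraries lay above those of WT DHPG and of Tsc2+/- vehicle, while in RNA all groups overlapped. The RPF differences were -0.12 (95% CI -0.24 to 0.01, adjusted p = 0.748) for DHPG in WT and -0.10 (95% CI -0.22 to 0.03, adjusted p = 0.811) for genotype in vehicle. The TE effect of DHPG in WT was -0.21 (95% CI -0.42 to -0.01, adjusted p = 0.531), -0.33 without WT vehicle replicate 1 and -0.08 without WT vehicle replicate 3.

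**Figure D3:**
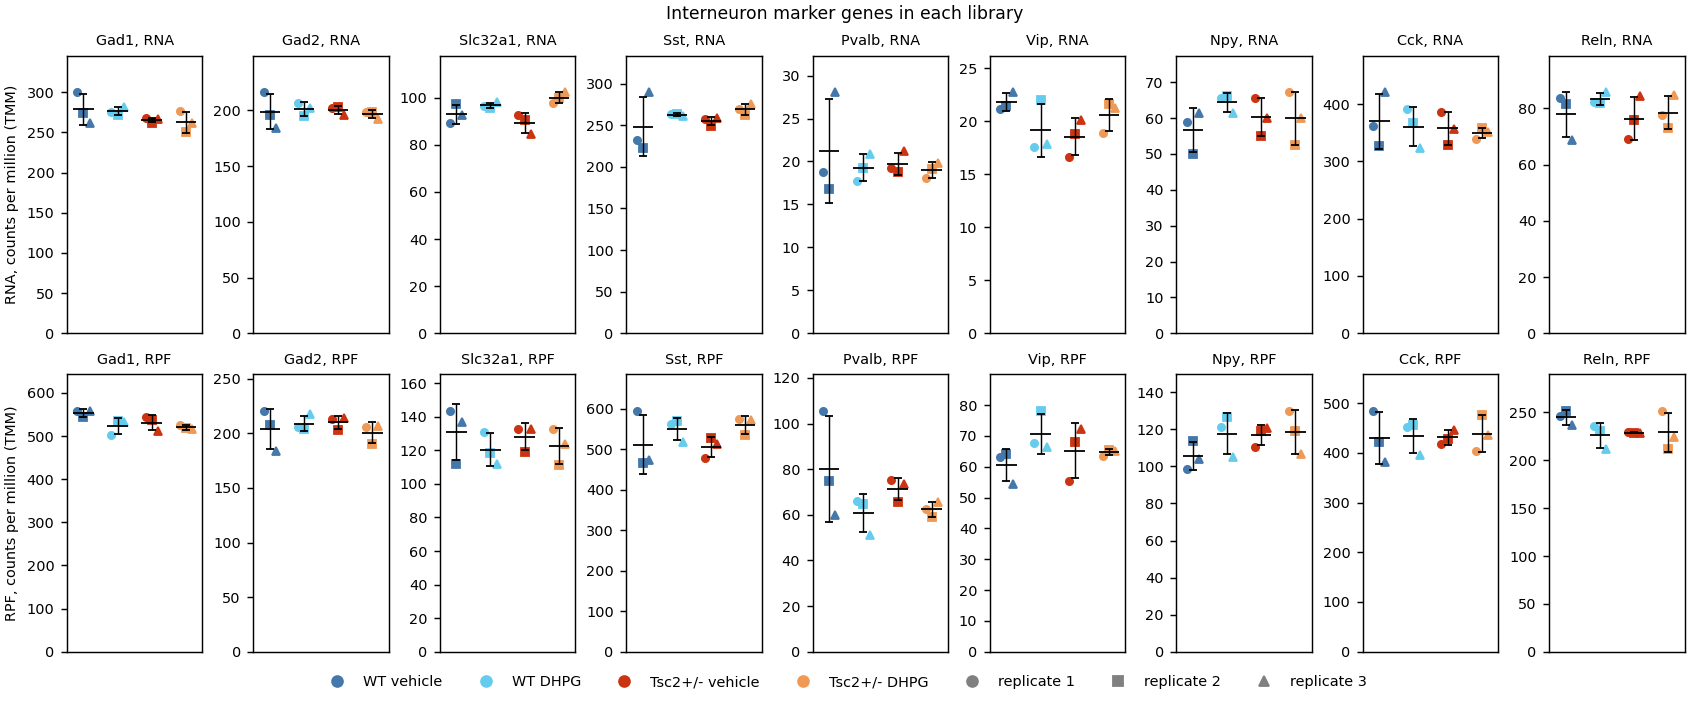
CPM (TMM-scaled) of the 9 genes in each RNA library (top) and RPF library (bottom), by group (colour) and replicate number (symbol), with mean and SD (n = 3) in black. Each panel has its own axis from 0. Differences between group means are small beside the levels, and WT vehicle has the widest spread for Gad2, Sst, Pvalb and Cck in both assays.

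Groups whose 3 libraries do not overlap are a plain count beside the tests. In RNA they were 1 gene for genotype in vehicle (Vip), 0 for genotype in DHPG, 1 for DHPG in WT (Npy) and 2 for DHPG in Tsc2+/- (Slc32a1 and Sst), against 8.20%, 9.44%, 10.3% and 8.69% of all genes. In RPF they were 1 (Reln), 1 (Vip), 3 (Gad1, Vip and Reln) and 2 (Sst and Pvalb) of the 9, against 8.29%, 10%, 8.96% and 9.42%. These groups share libraries, WT vehicle above all.

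The 3 GABA genes and the 6 subtype markers were also set side by side. Their median log2 fold changes for genotype in vehicle were -0.06 and -0.04 in RNA and -0.03 and -0.001 in RPF, beside -0.002 in both for all genes tested. After DHPG they were 0.02 and 0.03 in RNA and -0.08 and 0.06 in RPF in WT, while in Tsc2+/- they were -0.02 and 0.02 in RNA and -0.06 and 0.01 in RPF. The mean log2 CPM of the GABA genes minus that of the subtype markers in RNA was 1.20 ± 0.18 after vehicle and 1.21 ± 0.06 after DHPG in WT slices (SD, n = 3), and 1.20 ± 0.09 and 1.21 ± 0.04 in Tsc2+/- slices. In RPF it was 0.51 ± 0.11 and 0.45 ± 0.11 in WT and 0.49 ± 0.08 and 0.43 ± 0.05 in Tsc2+/-. These CPM are not divided by length, so only changes between groups are read. From summed CPM the log2 ratio in RNA was below 0, at -0.48 in WT vehicle and -0.50 in Tsc2+/- vehicle. The sign of the level thus depends on how the genes are combined. The difference by DHPG in RPF was -0.06 in WT, smaller than the SD of either group, and -0.05 in Tsc2+/-, above the SD after DHPG and below that after vehicle. As a log2 ratio of summed CPM, in which Sst and Cck weigh most, it was -0.09 in WT and -0.10 in Tsc2+/-. The latter was above both SDs (0.08 and 0.03). From mean log2 CPM without Cck and Reln it was -0.08 in WT, below both SDs (0.12 in each group). In Tsc2+/- it was then -0.05, above the SD after DHPG (0.04) and below that after vehicle (0.10). No test was run on any of these. A single lysate, WT vehicle replicate 3, was at 0.99 in RNA and 0.63 in RPF, against 1.10 to 1.33 and 0.36 to 0.58 in the other 11.

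**Figure D4:**
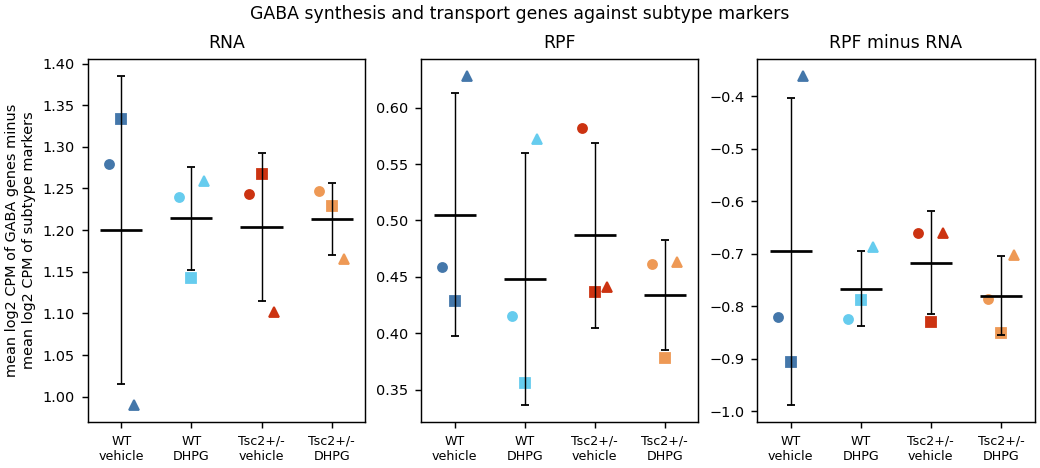
Mean log2 CPM of Gad1, Gad2 and Slc32a1 minus mean log2 CPM of the 6 subtype markers, in RNA, in RPF and as their difference, per lysate (symbols are replicate numbers), with group mean and SD (n = 3). CPM are not divided by length, and the axes do not start at 0. Group means lie close together within each assay, and WT vehicle replicate 3 is the lowest in RNA and the highest in RPF.

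RNA and RPF come from the same 12 lysates, so it can be asked whether a lysate high in a marker's RNA is also high in its footprints. With the mean of each replicate number subtracted, Pearson's r over the 12 lysates was 0.70 for Gad2 (Spearman's rho 0.64), 0.56 for Npy (0.59) and 0.40 for Gad1 (0.25). It was -0.67 for Slc32a1 (-0.80), where lysates with more RNA had fewer footprints, and between -0.10 and 0.19 for the other 5 genes. Across all 12785 genes tested in both assays the median was 0.0197 and the middle 50% ran from -0.24 to 0.28. Without the 2 lysates farthest from the median RNA, r was 0.47 for Gad2, 0.64 for Npy, 0.15 for Gad1 and -0.76 for Slc32a1, and without the subtraction it was 0.67, 0.20, 0.33 and -0.54. The range of a gene over lysates is narrow here, and lysates of 1 group share its treatment, so these values describe the lysates only.

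**Figure D5:**
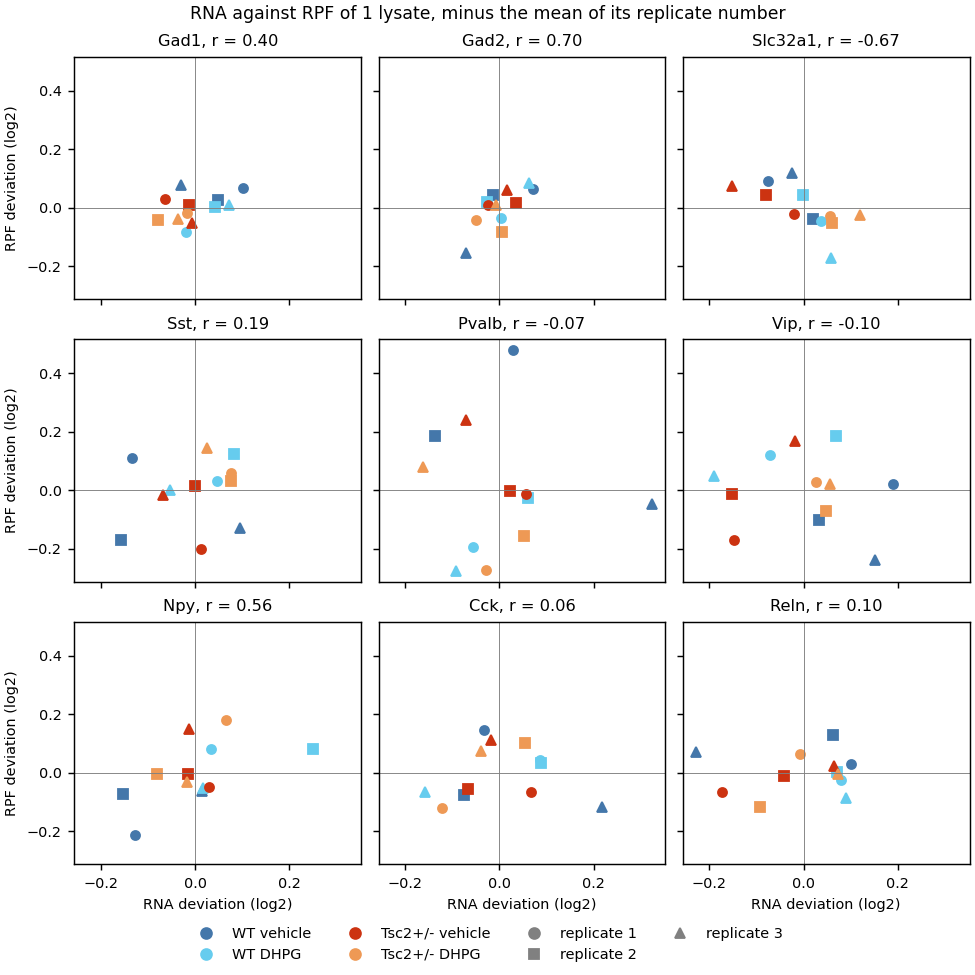
Deviation of each lysate in RNA (horizontal) and RPF (vertical), as log2 CPM minus the mean of the 4 lysates with the same replicate number, for each gene, coloured by group. Points lie along a rising line for Gad2 (r = 0.70) and a falling line for Slc32a1 (r = -0.67), and Pvalb has 1 lysate far out in each assay, both of WT vehicle.

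Lysates high in 1 marker were not in general high in the others. Of the 36 pairs of the 9 genes, 16 had an r above 0 in RNA (median -0.02, from -0.77 for Pvalb with Reln to 0.75 for Pvalb with Cck) and 21 in RPF (median 0.03, from -0.69 for Gad1 with Npy to 0.70 for Sst with Vip). In RNA, Gad1 and Gad2 had an r of 0.55 with each other and 0.65 and 0.58 with Reln, but -0.66 and -0.61 with Sst. Sst and Npy had an r of 0.66 in RNA. In RPF these values were -0.04 for Gad1 with Gad2 and 0.17 for Sst with Npy.

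The genes whose RNA followed a marker most closely over the 12 libraries included none from the lists of interneuron genes. Among 13233 genes with a mean of at least 1 CPM, the 3 highest r (mean of each replicate number subtracted) were Stxbp6 (0.91), Klhdc10 (0.91), Pot1a (0.91) for Gad1, Soat1 (0.95), Kat2b (0.93), Foxj3 (0.92) for Gad2 and Nfkb1 (0.91), Recql4 (0.91), Kdm2a (0.90) for Slc32a1. For the peptides they were Adprh (0.95), Sf3a2 (0.94), Snx32 (0.94) for Sst, Gng13 (0.96), Fcf1 (0.90), Dcaf12l2 (0.88) for Vip and Hmox1 (0.96), Mrpl24 (0.94), Scg5 (0.93) for Cck. For Reln they were Ppm1l (0.92), Fat1 (0.92), Ankrd34b (0.92). The 3 highest included Rbm38 (0.89), Mrpl57 (0.84) for Npy and Rps6 (0.97), Spcs1 (0.96) for Pvalb. These are the top of many values over only 12 libraries, which differ in depth and in group. In RPF the r of the same pairs ran from -0.63 to 0.68. Stxbp6 is a gene of dentate granule cells and Scg5 encodes a chaperone of peptide processing.

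The genes around these markers were read from lists. Of 15 genes for the recycling, breakdown and postsynaptic handling of GABA, all tested in RNA and RPF, edgeR called 0 in any of the 21 comparisons. At most 3 of the 15 had an unadjusted p under 0.05 in any comparison. This was in RNA for DHPG in WT (6.45% of all genes) and for DHPG averaged over genotypes (7.49%). The median log2 fold change of the 15 for genotype in vehicle was -0.004 in RNA and 0.0006 in RPF. Glul, the glutamine synthetase of astrocytes, was the most abundant per length (494 ± 19.8 CPM per kb of RNA, SD, n = 12) and Gabbr1, a subunit of the GABA-B receptor, was next (272 ± 7.42). Of 15 receptors and signal partners for the peptides and Reln, 13 were tested and 0 called, with at most 2 at an unadjusted p under 0.05, and Sstr5 and Cckar lay under 1 CPM. Dab1, the adaptor on which Reln signals, led at 32.4 ± 1.02 CPM per kb and the somatostatin receptor Sstr4 followed at 22.7 ± 1.70. Of 10 genes that process or store peptides, 17 transcription factors of interneurons (15 tested in RPF) and 31 further interneuron markers (30 tested), 0 were called in any comparison as well, with at most 1, 2 and 6 genes at an unadjusted p under 0.05. The 6 were of the further markers, in RPF for DHPG averaged over genotypes (median -0.02, with 6.82% of all genes at such a p) and in TE for DHPG in WT (median -0.06, 9.07% of all genes).

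Markers of other cells gave the setting of these levels. Summed RNA CPM over the 12 libraries was 9314 to 11270 for 8 genes of excitatory neurons, 1791 to 1966 for 6 of CA1, 645 to 723 for the 5 of 6 CA3 genes in the tables, 6381 to 8526 for 7 of astrocytes, 4737 to 6115 for 6 of oligodendrocytes, 169 to 229 for 6 of microglia and 48.4 to 75 for 6 of endothelium, with 0 of these genes called by edgeR in any comparison. At an unadjusted p under 0.05 the list with the most was oligodendrocytes, with 5 of 6 genes in RPF for DHPG in Tsc2+/- (median -0.18, against 4.03% of all genes) and 4 of 6 for DHPG averaged over genotypes (median -0.11, 6.82%). Of these CA3 genes 4 were tested in RNA, and Iyd lay under 1 CPM. Their sum does not show how much CA3 remained after it had been cut away. Choroid plexus genes were close to absent (15.9 to 25.2, with 5 of 6 under 1 CPM). Of the 6 genes kept as a sign of Cajal-Retzius cells, which include Reln itself, Lhx1 and Lhx5 were under 1 CPM in RNA, and those 2 and Trp73 in RPF.

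The dentate gyrus list was the one with a call. Prox1, a transcription factor of dentate granule cells and of many interneurons with Vip or Reln, had RNA CPM of 22.2, 18.4 and 16.2 in WT vehicle, 16.8, 22.6 and 20.9 in WT DHPG, 14.0, 16.95 and 14.0 in Tsc2+/- vehicle and 13.62, 16.9 and 12.6 in Tsc2+/- DHPG. It was lower in Tsc2+/- than in WT averaged over treatments, at -0.41 (95% CI -0.59 to -0.24, adjusted p = 0.0161) in RNA and -0.31 (adjusted p = 0.535) in RPF. The 8 dentate genes had a median of -0.31 in that RNA comparison, beside -0.001 for all genes, and 6 of them an unadjusted p under 0.05 (6.12% of all genes). In RPF their median was -0.56 for genotype in DHPG (5 of 8 genes at such a p, against 4.13%), -0.50 for DHPG in Tsc2+/- (3 of 8, 4.03%) and -0.34 for DHPG averaged over genotypes (3 of 8, 6.82%), with 0 called. Their summed RNA CPM was 195 to 245 in WT vehicle, 200.3 to 220.5 in WT DHPG, 175 to 217 in Tsc2+/- vehicle and 173 to 203 in Tsc2+/- DHPG. Their summed RPF CPM was 450 to 511, 462 to 517, 408 to 481 and 432 to 475 in the same order of groups. The means of these RPF sums did not fall after DHPG (473 to 482 in WT, 443 to 453.5 in Tsc2+/-), whereas the RPF medians were below 0. For genotype averaged over treatments in RNA, Vip was at -0.06 (95% CI -0.21 to 0.09, adjusted p = 0.955) and Reln at -0.06 (95% CI -0.17 to 0.05, adjusted p = 0.943). The part of dentate and oligodendrocyte RNA in the values of the 9 genes was not tested.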

How the data were processed

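The authors prepared RNA-seq and ribosome profiling libraries from the same pooled slice lysates. Per the study's methods, reads were filtered with Trimmomatic, cleared of rRNA and tRNA with Bowtie2 and mapped to mm10 with TopHat2, and uniquely mapped reads were counted with RSEM after duplicates were removed by molecular identifier, RNA over whole RefSeq transcripts and footprints (trimmed with cutadapt) over coding sequences without 30 nt at each end. The values deposited by the authors are RSEM expected counts per gene, which are estimated counts and not normalized. They were whole numbers in the files. Genes were kept by filterByExpr at a minimum count of 10. CPM use TMM factors. RNA and RPF were each tested with the quasi-likelihood F test of edgeR 4.0.16 (R 4.3.3, two-sided) over 12 libraries, with group and replicate number as terms, and TE as the assay-by-group interaction in 1 model of the 24 libraries. Benjamini-Hochberg adjustment ran over every gene tested, and an adjusted p under 0.1 was called. The replicate number is a term because the study corrected its counts for batch. Correlations used log2 (CPM + 0.5). Lengths, coordinates and sequences come from the RefSeq annotation of GRCm38.p6, with the longest coding transcript of each gene. Counting errors cover sampling of reads only, and depth is given in total counts. Only the fits of genotype in vehicle were run on simulated data, which had no replicate effect. Power for changes as small as those of the 9 genes was not measured. The members, lists and comparisons were chosen with earlier results of these data known. All 9 members are named, from other lists the genes called and, for GABA handling and peptide receptors, the 2 most abundant per length, and for each member the 3 genes with the highest r. For Npy and Pvalb 1 of these 3 is not reported here. Alternatives included DESeq2 1.42.0, ComBat (sva 3.50.0) followed by DESeq2, other scalings and filters, halved RPF counts, fits to only the groups compared, and leaving out replicates or single libraries.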

Additional observations from a re-analysis of the deposited data

How the results depend on the processing

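The count of members called in each comparison was computed again under 26 alternatives, which gave 516 counts, of which 511 stayed at 0. Among the alternatives was the main fit at an adjusted p under 0.05, where only 0 was possible. With only the groups compared, 1 member was called in RPF for DHPG in WT (Pvalb, -0.39, adjusted p = 0.0155 by edgeR). Leaving out replicates gave 0 to 1 member called for DHPG in WT in RPF (1 without WT vehicle replicate 3, Pvalb at -0.55, adjusted p = 0.057), 0 to 1 for DHPG averaged over genotypes in RPF (1 without WT vehicle replicate 1, Sst at 0.19, adjusted p = 0.0174, and 1 without WT vehicle replicate 3, Pvalb at -0.37, adjusted p = 0.063) and 0 to 1 for that comparison in TE (1 without WT vehicle replicate 2, Slc32a1 at -0.25, adjusted p = 0.0901). The cause was not tested. The 16 member tests with an unadjusted p under 0.05 kept their sign in every alternative run. They were picked by that p from these libraries, which the alternatives reuse, so a kept sign adds no independent support. Calls over all genes, summed over the 7 comparisons, were 56 in RNA, 21 in RPF and 12 in TE, against 84, 51 and 147 with DESeq2, 59, 19 and 46 with ComBat followed by DESeq2, 119, 85 and 18 without a filter on low counts, 44, 15 and 8 at an adjusted p under 0.05, and 34 in RPF and 31 in TE with the RPF counts of replicates 2 and 3 halved.

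Without the replicate block the members called stayed at 0 in all 21 comparisons, and calls over all genes were 27 in RNA, 11 in RPF and 1 in TE. Same-numbered libraries deviated together with r of 0.0228 to 0.143 in RNA and 0.033 to 0.263 in RPF, against -0.126 to 0.024 and -0.194 to 0.0667 for other pairs, so not every pair was above 0.1. The number stands in the fits as a batch term, after the study's batch correction, and is not read as a pairing of animals. With the lysate as a block in the TE model, which keeps the replicate block within each assay, 12 genes were called and 0 members. Counting error was largest for the low genes Pvalb and Vip, at 4.45% and 4.51% in RPF, beside coefficients of variation of 19.7% and 9.89%. Their deposited RPF counts ran from 316 and 286 upwards. Both minima lie in libraries of replicates 2 and 3, where the counts of the 9 genes, and nearly all nonzero counts of other genes, were even.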
